A study of Mus musculus with 40 samples.

Results

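Chemokines are small secreted proteins that steer white blood cells along concentration gradients, and they were followed here with their receptors in the livers of mice given TCDD, the dioxin 2,3,7,8-tetrachlorodibenzo-p-dioxin. The genes were chosen by name alone: every symbol made of Ccl, Cxcl or Cx3cl (ligands) or of Ccr, Cxcr, Cx3cr, Xcr or Ackr (receptors) followed by a number, with pseudogenes left out. This gave 59 genes of the 55359 in the count tables, 36 ligands (23 CC, 12 CXC and 1 CX3C) and 23 receptors (11 CC, 6 CXC, 1 CX3C, 1 XC and 4 atypical). Another 3 matching symbols (Ccl19-ps1, Ccl19-ps3 and Cxcl11) were annotated as pseudogenes and left out. Classical chemokine receptors couple to inhibitory G proteins and set cell movement, whereas the atypical receptors do not signal in this way and take up and clear ligands. In the liver, CCL2 and CCR2 are known for drawing in blood monocytes, CXCR2 and its ligands for drawing in neutrophils, CXCL9 and CXCL10 are induced by interferons and bind CXCR3 on T cells, and CXCL12 is a homeostatic ligand of CXCR4.

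Male C57BL/6 mice received sesame oil vehicle or TCDD by oral gavage at 1 of 7 doses. The low doses were 0.03, 0.1 and 0.3 μg/kg, the middle doses 1 and 3 μg/kg and the high doses 10 and 30 μg/kg. Gavage was given every 4 days for 28 days, 7 times in all, with 5 mice in each of 8 groups. Mice were 30 days old at the start and 58 days old at the end of the 28 days. TCDD activates the aryl hydrocarbon receptor (AhR), a ligand-bound transcription factor. Whole liver tissue, a mixture of cell types, was sequenced, so a lower level of a transcript can mean fewer cells of a type or less RNA per cell, and these cannot be told apart. The libraries held 15.5 M to 21.0 M gene counts (median 17.5 M, where M stands for 1e6). Levels are given as counts per M (CPM) after TMM scaling, and a floor of 3 counts corresponded to 0.191 CPM on average in vehicle. "Called" means a Benjamini-Hochberg adjusted p under 0.05 in edgeR's quasi-likelihood test over all 15373 genes tested, with a fold of at least 1.5. Errors of log2 fold changes are standard errors and those of levels are SD, with n = 5 mice in each group.

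Several libraries stood apart from the others of their group. Among the 25 of 40 tested members that were called higher at 30 μg/kg, where 23.2% of all genes were, replicate 1 of that group had the lowest value in 16, while replicate 2 had the highest in 10 and replicate 5 in 9. Without replicate 1 the count of members called at 30 μg/kg was 31, the same number as with it, and without replicate 5 it was 29. In the 3 μg/kg group, replicate 2 had 3677 counts of Cxcl1 where the other 4 mice had 40 to 93. Of the 40 libraries, this one also had the highest share of unmapped reads (11.3%, median 5.14%) and the lowest share of reads in genes (71.3%). The title numbers of the labels form 2 runs of 19 and 21 libraries that both hold every dose, and members called at 30 μg/kg numbered 25 within the first numbering run and 26 within the second. Within a run the title numbers come in blocks of 3 that each hold 1 dose, and title order is the place of a mouse in its block. What the runs and the order stand for is not given in the sources used here.

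The promoters of the members with the largest rises and of the genes that the account turns on are shown first, so that windows with and without matches to motifs of AhR-responsive and inflammatory genes can be compared. Each is the 250 bases before the start of the gene, 5′ to 3′ on the gene's strand, from RefSeq with the build GRCm38.p6, with capitals marking matches on either strand to 1 of 4 motifs. These are GCGTG (the core of the dioxin response element), the kappa B motif (GGG and TTCC with any 3 bases between), the interferon-stimulated response element or ISRE (GAAA and GAAA with any 2 bases between) and AP-1 (TGANTCA). Cxcl10 lies at chr5:92348890-92349139 on the minus strand and Cxcl2 at chr5:90903649-90903898 on the plus strand. Ccr1 lies at chr9:123968693-123968942 on the minus strand and Ccr2 at chr9:124101933-124102182 on the plus strand. Cx3cr1 lies at chr9:120068297-120068546 on the minus strand and Ccl3 at chr11:83649379-83649628 on the minus strand.
Cxcl10: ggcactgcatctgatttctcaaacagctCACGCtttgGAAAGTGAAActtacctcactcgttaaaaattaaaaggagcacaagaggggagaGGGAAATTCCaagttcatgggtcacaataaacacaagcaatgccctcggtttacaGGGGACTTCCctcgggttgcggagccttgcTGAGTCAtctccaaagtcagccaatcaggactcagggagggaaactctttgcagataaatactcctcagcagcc
Cxcl2: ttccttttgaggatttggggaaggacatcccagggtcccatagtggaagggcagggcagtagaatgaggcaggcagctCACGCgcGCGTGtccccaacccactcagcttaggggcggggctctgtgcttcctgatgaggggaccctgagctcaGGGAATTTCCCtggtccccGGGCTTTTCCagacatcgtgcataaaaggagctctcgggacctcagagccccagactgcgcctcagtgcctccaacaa
Ccr1: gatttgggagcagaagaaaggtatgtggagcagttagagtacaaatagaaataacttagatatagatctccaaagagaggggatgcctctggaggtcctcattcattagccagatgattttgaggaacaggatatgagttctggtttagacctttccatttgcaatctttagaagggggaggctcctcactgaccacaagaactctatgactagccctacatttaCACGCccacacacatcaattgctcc
Ccr2: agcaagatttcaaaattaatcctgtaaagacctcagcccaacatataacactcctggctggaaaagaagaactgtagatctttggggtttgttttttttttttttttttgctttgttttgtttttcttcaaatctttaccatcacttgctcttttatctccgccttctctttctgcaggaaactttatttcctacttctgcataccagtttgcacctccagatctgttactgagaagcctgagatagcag
Cx3cr1: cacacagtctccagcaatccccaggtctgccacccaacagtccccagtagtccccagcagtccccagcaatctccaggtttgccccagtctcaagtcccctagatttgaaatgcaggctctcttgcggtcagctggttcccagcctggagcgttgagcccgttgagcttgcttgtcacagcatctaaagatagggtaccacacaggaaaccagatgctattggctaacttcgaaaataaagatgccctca
Ccl3: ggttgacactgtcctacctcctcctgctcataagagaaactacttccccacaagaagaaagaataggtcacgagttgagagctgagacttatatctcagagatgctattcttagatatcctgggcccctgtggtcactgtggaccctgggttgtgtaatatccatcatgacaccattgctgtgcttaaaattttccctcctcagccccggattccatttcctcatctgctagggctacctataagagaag

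In the Cxcl10 window, the dioxin response element core began 222 bases before the start, the ISRE 213, kappa B matches 159 and 104, and the AP-1 match 74. The Cxcl2 window held 2 dioxin response element cores, at 172 and 165 bases before the start, and kappa B matches at 97, 96 and 78, of which the first pair overlap. The Ccr1 window held 1 dioxin response element core, 25 bases before the start. No match to these letters was found in the windows of Ccr2, Cx3cr1 and Ccl3. RefSeq promoters were matched for 45 of the 59 members (52 promoters). Those without one included Ccl11, Ccl2, Ccl24, Ccl26, Ccl4, Ccl5, Ccl7, Ccr10, Ccr7, Cxcl16, Cxcl17, Cxcl5 and Cxcr5. The kappa B letters were in 9 of the 52 (17.3%) and in 4.65% of all 32851 promoters, and the dioxin response element core was in 19 of the 52 (36.5%) and in 28.2% of all promoters. The ISRE letters were in 3 of the 52 (5.77%, against 2.98% of all) and the AP-1 letters in 6 (11.5%, against 6.75%). Some genes have several of these promoters, so they are not independent.

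Of the 59 members, 40 passed the filter on low counts (23 ligands and 17 receptors) and were tested. At 0.03, 0.1 and 0.3 μg/kg no member was called in edgeR or DESeq2, where 0.0195%, 0.0976% and 0.468% of all genes tested were called, and 1, 3 and 5 members had an unadjusted p under 0.05. At 1 μg/kg, 4 of the 40 members were called (3 higher and 1 lower, 10% of the members) against 2.78% of all genes (2.15% higher and 0.637% lower). At 3 μg/kg, 11 were called (10 higher and 1 lower, 27.5%) against 6.75% of all genes (4.53% higher and 2.22% lower). The share reached 65% at 10 μg/kg, with 21 higher and 5 lower against 21.8% of all genes (13.6% higher and 8.13% lower). At 30 μg/kg, 25 members were higher and 6 lower (77.5%), against 42.1% of all genes (23.2% higher and 18.9% lower). The median log2 fold change of the members at 30 μg/kg was 1.77 and that of all genes tested was 0.03. A slope over the ordered doses was called in 37 members (31 rising and 6 falling, 92.5%) and in 57.7% of all genes (31.5% rising and 26.1% falling).

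**Figure D1:**
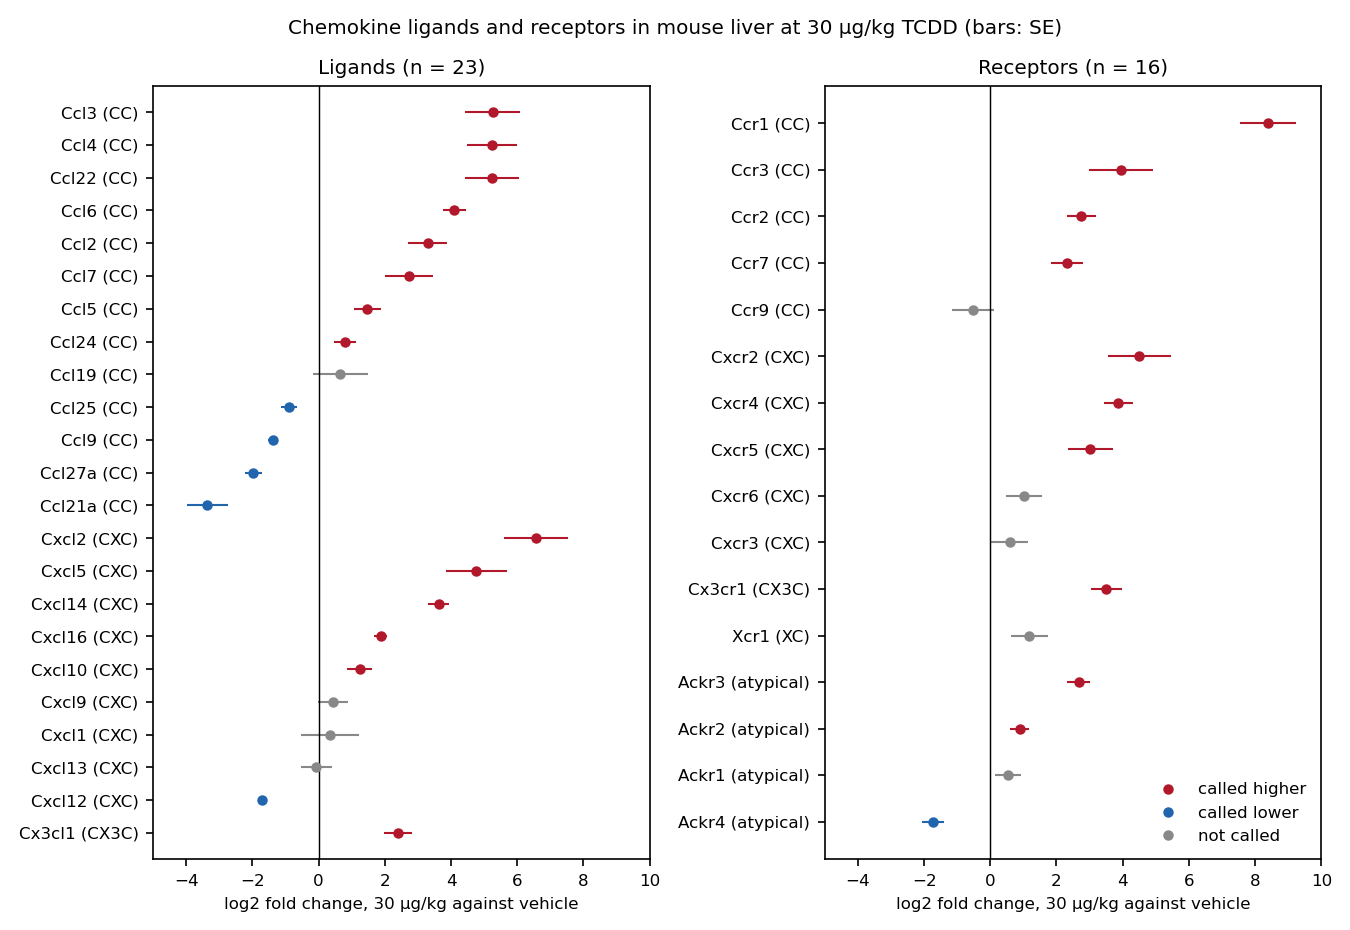
Log2 fold change at 30 μg/kg against vehicle (horizontal axis) of the 23 ligands and 16 of the 17 receptors tested, grouped by family, with standard errors as bars, n = 5 mice in each group. Red points were called higher, blue points lower (6) and grey points were not called. Ccr1 and Cxcl2 lie farthest to the right and Ccl21a farthest to the left, and the values of Ccr1, Cxcl2, Ccl3, Ccl4 and Ccl22 are fitted against vehicle libraries with at most 3 counts.

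The filter bears on these counts, because a gene that is near 0 in vehicle can pass it only where another group is high. Taking instead the 14 members with at least 10 counts in all 5 vehicle libraries, 7 were called higher at 30 μg/kg (among them Ackr2, Ccl24, Ccl6, Cxcl10, Cxcl14 and Cxcl16), 5 lower (Ackr4, Ccl25, Ccl27a, Ccl9 and Cxcl12) and 2 were not called (Cxcl1 and Cxcl9). Of all genes that met the same rule in vehicle, 40.2% were called at 30 μg/kg (18.2% higher and 22% lower). The 19 members below the filter included 4 with no count in any library (Ccl21b, Ccl26, Ccl27b and Cxcl15). Of the other 15, Ccr8 had 1 count at most in a library and Cxcl3 had 30, and the rest (Ccl1, Ccl8, Ccl11, Ccl12, Ccl17, Ccl20, Ccl28, Ccr1l1, Ccr4, Ccr6, Ccr10, Cxcl17 and Cxcr1) reached between 4 and 21. With no filter, Ccl12, Ccl17, Ccl20 and Cxcl3 were called higher at 30 μg/kg. All 4 had 0 counts in every vehicle library, and against the floor Cxcl3, a CXCR2 ligand, was at least 2.41-fold higher. Ccl17, a CCR4 ligand, had 21 counts in replicate 2 at 30 μg/kg and 1 to 4 in the other mice. Ccl12 and Ccl20 had means of 4.4 and 4.2 counts at 30 μg/kg, below the vehicle floor in CPM, so no fold is given for them.

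Ccl2, which attracts monocytes, was at 0.0647, 0.187, 0.597, 0.839 and 0.931 CPM in the 5 vehicle mice, at 2.77, 2.83, 3.36, 4.59 and 10.0 CPM at 10 μg/kg and at 3.33, 4.04, 4.21, 6.95 and 7.08 CPM at 30 μg/kg. Both high-dose groups lay wholly above vehicle, and the 2 high-dose groups overlapped each other. Ccl2 was 9.77-fold higher at 30 μg/kg (log2 fold change 3.29 ± 0.58, edgeR adjusted p = 8.87e-06) and 8.97-fold higher at 10 μg/kg (log2 fold change 3.16 ± 0.59, edgeR adjusted p = 5.02e-05), and 30 against 10 μg/kg was not called (log2 fold change 0.12 ± 0.49, edgeR adjusted p = 0.88). Its receptor Ccr2 was at 0.070, 0.453, 0.716, 1.24 and 1.56 CPM in vehicle and at 4.51, 4.95, 5.72, 6.06 and 6.7 CPM at 30 μg/kg, with no overlap (log2 fold change 2.75 ± 0.44, edgeR adjusted p = 1.26e-06). It was also called from 10 μg/kg (log2 fold change 2.03 ± 0.43, edgeR adjusted p = 0.000334). Ccl7, another CCR2 ligand, had 1 to 6 counts in vehicle and 14 to 39 at 30 μg/kg, and was called at both doses (log2 fold change 2.72 ± 0.72, edgeR adjusted p = 0.00153 at 30 μg/kg, and 3.43 on the log2 scale without vehicle replicate 4). At 30 μg/kg the log2 fold change of Ccl2 was 4.07 in the first numbering run and 2.49 in the second, and that of Ccr2 was 2.40 in the first numbering run and 3.74 in the second. The call of Ccl7 at 10 μg/kg was lost in 7 of the 10 fits that left out 1 mouse of vehicle or 10 μg/kg.

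Cx3cl1, the membrane-bound ligand of the CX3C family, was at 0.259, 0.299, 0.77, 0.931 and 1.12 CPM in vehicle and at 2.59, 2.78, 3.37, 4.12 and 4.85 CPM at 30 μg/kg. All 5 mice at 30 μg/kg lay above all vehicle mice (log2 fold change 2.40 ± 0.44, edgeR adjusted p = 1.25e-05), and it was called from 10 μg/kg. Its receptor Cx3cr1, carried by monocytes and resident phagocytes, was at 0.0647, 0.215, 0.35, 0.398 and 1.24 CPM in vehicle, at 1.18, 1.67, 2.4, 2.95 and 2.98 CPM at 10 μg/kg and at 3.47, 4.47, 4.65, 5.88 and 7.99 CPM at 30 μg/kg. One vehicle mouse stood above the rest and overlapped the 10 μg/kg group, whereas the 30 μg/kg group lay wholly above the 10 μg/kg group. Cx3cr1 was 11.4-fold higher at 30 μg/kg (log2 fold change 3.51 ± 0.48, edgeR adjusted p = 6.4e-08) and 2.36-fold higher than at 10 μg/kg (log2 fold change 1.24 ± 0.41, edgeR adjusted p = 0.0184). Leaving out vehicle replicate 2 gave a log2 fold change of 4.30 at the top dose, and within the runs it was 3.31 in the first numbering run and 4.08 in the second.

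**Figure D2:**
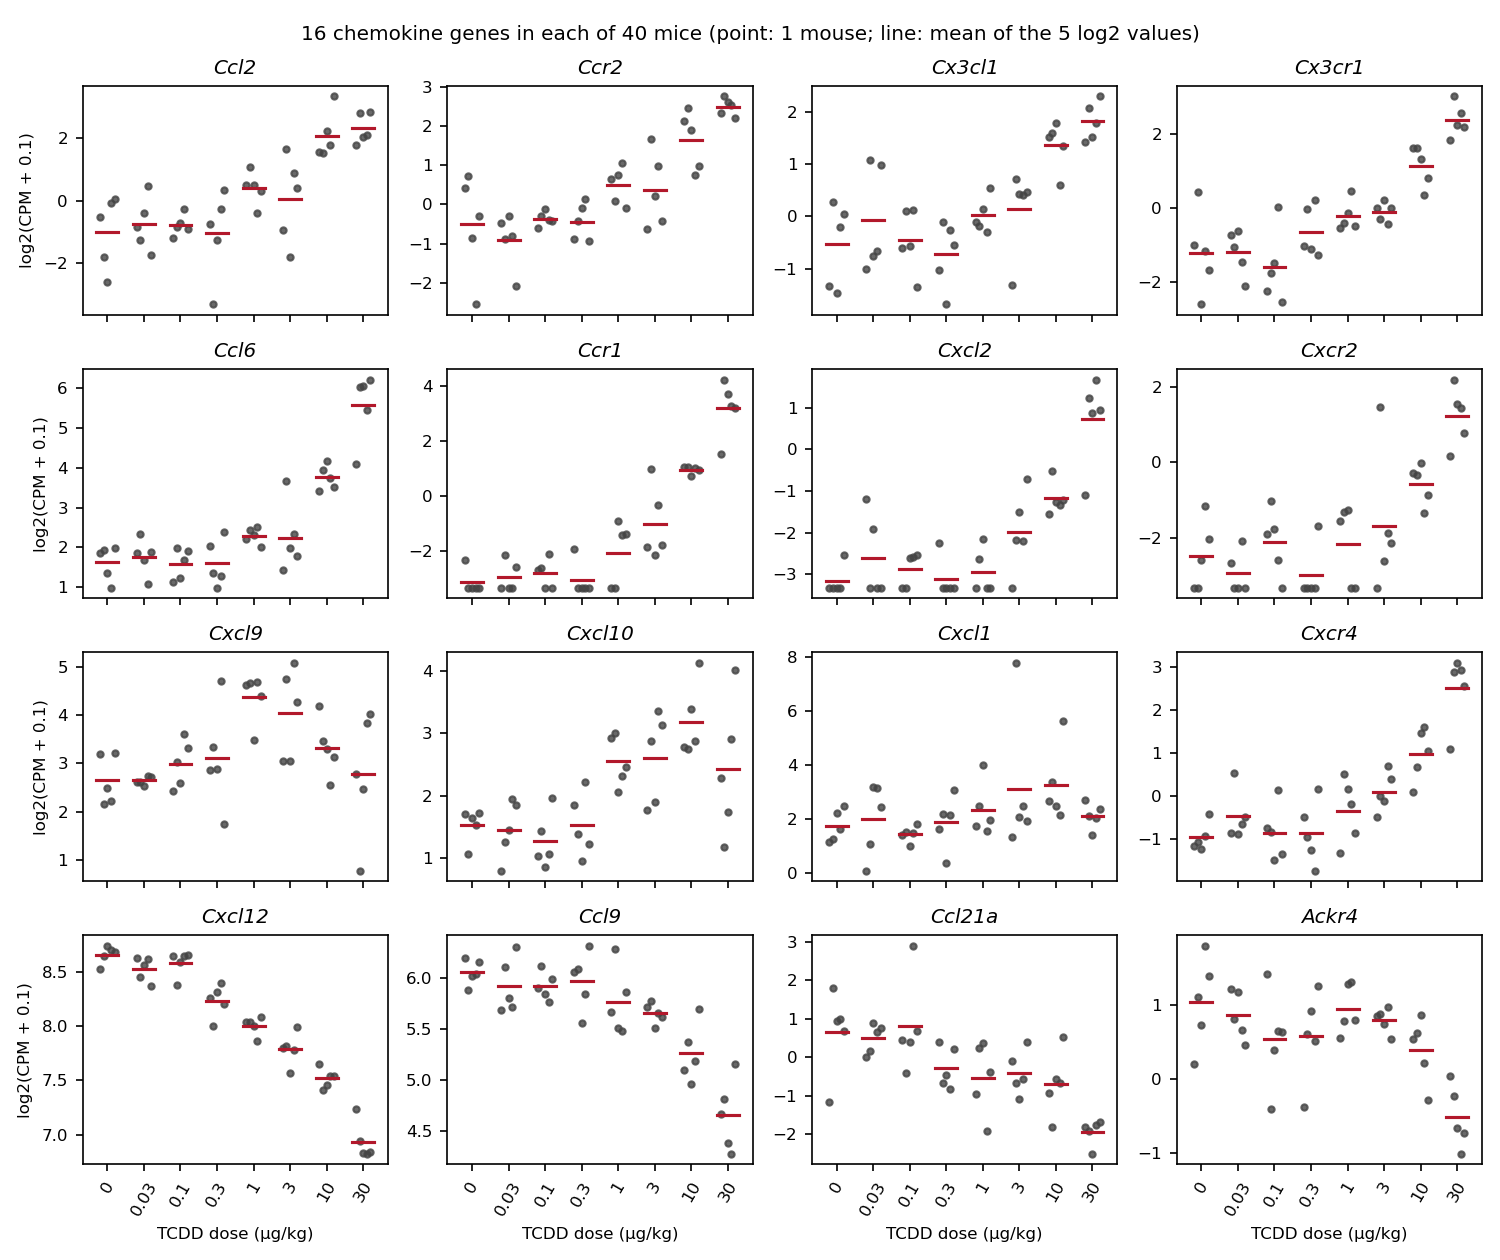
Levels of 16 chemokine genes in each of the 40 mice as log2(CPM + 0.1) (vertical axes, set per gene) against TCDD dose in μg/kg (horizontal axis, 0 for vehicle). Each point is 1 mouse and each line the mean of the 5 log2 values of a group. Ccl2, Ccr2, Cx3cl1 and Cx3cr1 lie higher at 10 and 30 μg/kg, and Cxcl9 peaks at 1 and 3 μg/kg. Cxcl1 has 1 mouse far above the rest at 3 μg/kg, and Cxcl12 falls with dose and is called from 1 μg/kg.

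CCR1 binds several CC ligands, and the receptor and most of the ligands described next rose. Ccr1, a receptor of neutrophils and monocytes, had 0 counts in 4 vehicle mice and 2 counts in the fifth, and was at 1.56, 1.83, 1.94, 1.98 and 2.02 CPM at 10 μg/kg and 2.78, 9.15, 9.61, 13.0 and 18.9 CPM at 30 μg/kg. The 3 groups did not overlap. Replicate 1 was the lowest mouse at 30 μg/kg. Against the floor of the vehicle group, Ccr1 was at least 56.0-fold higher at 30 μg/kg (edgeR adjusted p = 8.77e-11) and at least 9.78-fold higher at 10 μg/kg, and it was called from 3 μg/kg. From 10 to 30 μg/kg it was 5.7-fold higher (log2 fold change 2.51 ± 0.51, edgeR adjusted p = 0.000201). Ccl3, a CCR1 ligand, had 0, 0, 1, 2 and 2 counts in vehicle and 16, 53, 72, 74 and 119 at 30 μg/kg, at least 14.2-fold higher (edgeR adjusted p = 1.4e-06). Ccl4, an attractant of monocytes and T cells, had 0, 0, 0, 1 and 3 counts in vehicle and 19, 45, 48, 66 and 89 at 30 μg/kg, at least 11.4-fold higher (edgeR adjusted p = 2.38e-07). Neither ligand overlapped between vehicle and 30 μg/kg, and both had their lowest count at 30 μg/kg in replicate 1. Ccl4 was called from 3 μg/kg, a call lost in 8 of the 10 fits with 1 mouse left out.

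Ccl6, a mouse CC chemokine that binds CCR1, was at 1.89, 2.46, 3.53, 3.73 and 3.87 CPM in vehicle, at 10.7, 11.4, 13.2, 15.4 and 17.8 CPM at 10 μg/kg and at 17.1, 44.0, 65.1, 66.6 and 74.3 CPM at 30 μg/kg. Replicate 1 was the lowest mouse at 30 μg/kg and fell within the range at 10 μg/kg, and the other 4 lay well above it. Ccl6 was 17.2-fold higher at 30 μg/kg (log2 fold change 4.10 ± 0.36, edgeR adjusted p = 2.99e-12) and 4.4-fold higher at 10 μg/kg (log2 fold change 2.14 ± 0.34, edgeR adjusted p = 6.25e-06). Ccl5, a ligand of CCR1 made by T cells among others, was at 0.324, 0.839, 0.933, 1.24 and 2.01 CPM in vehicle and at 0.915, 2.92, 3.01, 3.1 and 4.93 CPM at 30 μg/kg. Its replicate 2 at 30 μg/kg lay within the vehicle range, and the rise of 2.78-fold was called (log2 fold change 1.47 ± 0.40, edgeR adjusted p = 0.00207) but in neither numbering run alone, where the log2 fold change was 1.15 in the first numbering run and 1.34 in the second.

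Ccl22, which binds CCR4 and is made by dendritic cells and macrophages, had 0, 0, 0, 1 and 3 counts in vehicle and 40, 52, 54, 54 and 60 at 30 μg/kg. The groups did not overlap from 3 μg/kg upward, and at 30 μg/kg Ccl22 was at least 11.4-fold higher (edgeR adjusted p = 1.04e-06). Ccl24, an eosinophil attractant that binds CCR3, was at 0.746, 1.36, 1.47, 1.74 and 2.14 CPM in vehicle and at 1.21, 1.39, 1.98, 2.33 and 6.11 CPM at 30 μg/kg. Replicate 5 stood far above the rest. Replicate 3 lay just above the vehicle range and the other 3 mice lay within it. The call (log2 fold change 0.80 ± 0.34, edgeR adjusted p = 0.045) was lost without replicate 5 (log2 fold change 0.19), and also without TCDD 30 replicate 3 or vehicle replicate 2, 4 or 5. It was also lost with the numbering run as a covariate (0.73 on the log2 scale, edgeR adjusted p = 0.0747) and with run and title order as a covariate (0.54, edgeR adjusted p = 0.173). Ccr3 had 0 to 5 counts in vehicle and 8 to 67 at 30 μg/kg, with no overlap (log2 fold change 3.95 ± 0.97, edgeR adjusted p = 0.000672, and 5.68 on the log2 scale without vehicle replicate 1). Ccr7, which brings dendritic cells and T cells to lymphoid tissue, was at 0.21, 0.249, 0.311, 0.583 and 0.716 CPM in vehicle and at 1.34, 1.6, 2.23, 2.42 and 2.7 CPM at 30 μg/kg, 4.98-fold higher with no overlap (log2 fold change 2.32 ± 0.49, edgeR adjusted p = 0.000105). The CCR7 ligand Ccl19 was not called at any dose and had 1 to 8 counts in vehicle and 4 to 16 at 30 μg/kg.

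Of the neutrophil attractants, Cxcl2 and Cxcl5 were called higher at 30 μg/kg and Cxcl1 was not called at 10 or 30 μg/kg. Cxcl2 had 0, 0, 0, 0 and 1 counts in vehicle, 5, 5, 6, 6 and 13 at 10 μg/kg and 8, 43, 45, 54 and 78 at 30 μg/kg, where replicate 1 was far below the other 4 mice. Against the vehicle floor it was at least 9.68-fold higher at 30 μg/kg (edgeR adjusted p = 3.2e-07) and at least 1.86-fold higher at 10 μg/kg. Cxcl5 was detected in 2 of the 5 vehicle mice, with 2 and 4 counts, and in no mouse from 0.03 to 3 μg/kg, and had 1, 2, 3, 5 and 13 counts at 10 μg/kg and 12, 17, 48, 68 and 124 at 30 μg/kg. It was called only at 30 μg/kg among the 7 doses (log2 fold change 4.76 ± 0.93, edgeR adjusted p = 0.000239), with no overlap with vehicle. Cxcr2, the neutrophil receptor of these ligands, had 0, 0, 1, 2 and 5 counts in vehicle and 22, 38, 65, 74 and 107 at 30 μg/kg, with no overlap (log2 fold change 4.50 ± 0.95, edgeR adjusted p = 0.000116). These folds rest on few vehicle counts, and without 1 vehicle mouse the log2 fold change was 5.88 for Cxcl5 (without replicate 2, and 4.15 without TCDD 30 replicate 2) and 5.54 for Cxcr2 (without replicate 4).

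Cxcl1 was at 2.14, 2.3, 3.01, 4.6 and 5.52 CPM in vehicle and at 2.56, 4.05, 4.2, 5.02 and 6.48 CPM at 30 μg/kg, and the groups overlapped (log2 fold change 0.35 ± 0.88, edgeR adjusted p = 0.759). At 3 μg/kg the mice were at 2.42, 3.65, 4.14, 5.42 and 219 CPM and at 10 μg/kg at 4.36, 5.47, 6.19, 10.3 and 49.0 CPM, with replicate 2 the high mouse in the first group and replicate 5 in the second. It was called at 3 μg/kg (log2 fold change 3.75 ± 0.91, edgeR adjusted p = 0.00456), and without replicate 2 its log2 fold change was 0.17 with an edgeR adjusted p of 0.914. With run and title order as a covariate it was 2.23 (edgeR adjusted p = 0.14). In the same mouse Cxcr2 had 44 counts where the other 4 had at most 3, Ccl6 had 210 where they had 43 to 85, and the 6 neutrophil markers summed to 29.4 CPM, the highest of its group. The part of these cells in its Cxcl1 level was not tested, nor was that of its library, which had the highest share of unmapped reads.

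The interferon-induced ligands of CXCR3 had their highest means below the top dose, at 1 μg/kg for Cxcl9 and 10 μg/kg for Cxcl10. Cxcl9 was at 4.35, 4.55, 5.5, 9.0 and 9.24 CPM in vehicle, 11.1, 20.9, 24.4, 25.3 and 25.7 CPM at 1 μg/kg, 8.22, 8.23, 19.2, 26.7 and 33.7 CPM at 3 μg/kg and 1.62, 5.45, 6.76, 14.1 and 16.1 CPM at 30 μg/kg. All mice at 1 μg/kg lay above all vehicle mice, whereas the mice at 30 μg/kg spread from below to above the vehicle range. It was 3.28-fold higher than vehicle at 1 μg/kg (log2 fold change 1.71 ± 0.45, edgeR adjusted p = 0.0222) and 2.94-fold higher at 3 μg/kg (log2 fold change 1.55 ± 0.45, edgeR adjusted p = 0.0211). It was not called at 30 μg/kg (log2 fold change 0.43 ± 0.45, edgeR adjusted p = 0.436). In comparisons added after seeing the data, Cxcl9 was lower at 30 than at 1 μg/kg (log2 fold change -1.28 ± 0.44, edgeR adjusted p = 0.0145) and lower at 30 than at 3 μg/kg (log2 fold change -1.12 ± 0.44, edgeR adjusted p = 0.0335). In these, 29 members (22 higher and 7 lower) and 27 members (19 higher and 8 lower) were called, against 36.9% of all genes (20.3% higher and 16.7% lower) and 35% (19.4% higher and 15.6% lower). The calls at 1 and 3 μg/kg were lost in 4 and 5 of the 10 fits with 1 mouse left out and in each numbering run alone.

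Cxcl10 was at 1.99, 2.8, 3.04, 3.18 and 3.22 CPM in vehicle, 6.6, 6.81, 7.24, 10.4 and 17.4 CPM at 10 μg/kg and 2.16, 3.24, 4.77, 7.38 and 16.1 CPM at 30 μg/kg. At 10 μg/kg all mice exceeded the vehicle range, while at 30 μg/kg 1 mouse lay within the vehicle range and 1 lay far above the rest. It was 3.4-fold higher at 10 μg/kg (log2 fold change 1.76 ± 0.39, edgeR adjusted p = 0.000463). Its call at 3 μg/kg (log2 fold change 1.22 ± 0.39, edgeR adjusted p = 0.0369) was lost in 8 of the 10 fits with 1 mouse left out, and with run and title order as a covariate (edgeR adjusted p = 0.0525). At 30 μg/kg it was 2.36-fold higher (log2 fold change 1.24 ± 0.39, edgeR adjusted p = 0.00632), a call lost when TCDD 30 replicate 5 was left out (0.60 on the log2 scale), and within the runs the log2 fold change was 0.32 in the first numbering run and 1.53 in the second. The difference between 30 and 10 μg/kg was not called (log2 fold change -0.53 ± 0.36, edgeR adjusted p = 0.287). Their receptor Cxcr3 was not called at any dose, with 0.0647 to 1.93 CPM in vehicle and 0.416 to 1.11 CPM at 30 μg/kg. Xcr1, a receptor of cross-presenting dendritic cells, had 0 to 8 counts in vehicle, 14 to 26 at 1 μg/kg and 6 to 23 at 30 μg/kg. It was called at 1 μg/kg (log2 fold change 2.03 ± 0.55, edgeR adjusted p = 0.0276) and at 10 μg/kg (log2 fold change 2.24 ± 0.55, edgeR adjusted p = 0.00153) but not at 3 or 30 μg/kg, and the call at 1 μg/kg was lost in 4 of the 10 fits with 1 mouse left out. Exons of Cxcl10 overlap Art3 over 5.91% of their length on the other strand, so reads there can be left out as ambiguous.

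**Figure D3:**
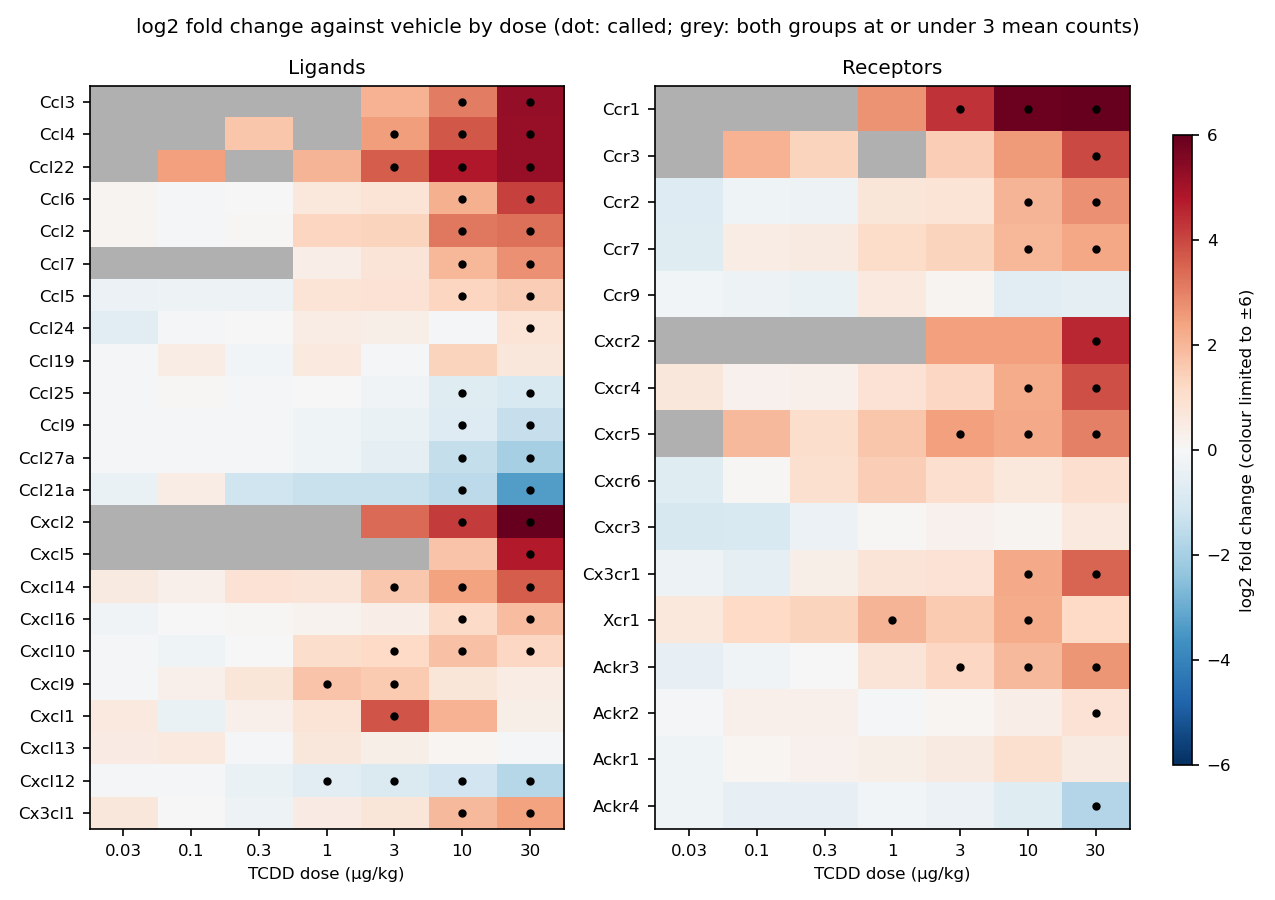
Log2 fold change against vehicle (colour, limited to ±6) of the members tested (rows, 23 ligands left and 16 of 17 receptors right) at the 7 TCDD doses in μg/kg (columns). Black dots mark calls and grey cells are members with at most 3 mean counts in both groups, for which no fold is given. Calls of Cxcl12, Cxcl9 and Xcr1 begin at 1 μg/kg, and most members are called at 30 μg/kg.

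Cxcl14, a chemokine of epithelial tissues, was at 0.622, 0.971, 1.24, 1.4 and 1.5 CPM in vehicle, 3.09, 3.16, 3.33, 3.63 and 4.35 CPM at 3 μg/kg and 7.27, 14.1, 14.6, 15.9 and 19.0 CPM at 30 μg/kg. The mice at 3 and 30 μg/kg lay above all vehicle mice. It was 3.06-fold higher at 3 μg/kg (log2 fold change 1.61 ± 0.31, edgeR adjusted p = 0.00046) and 12.3-fold higher at 30 μg/kg (log2 fold change 3.62 ± 0.31, edgeR adjusted p = 1.86e-12). Cxcl16, a membrane-bound ligand of CXCR6, was at 2.31, 3.82, 4.8, 6.28 and 7.46 CPM in vehicle and at 11.8, 17.8, 19.8, 20.2 and 21.3 CPM at 30 μg/kg, 3.66-fold higher with no overlap (log2 fold change 1.87 ± 0.20, edgeR adjusted p = 4.37e-10). Its exons overlap Zmynd15 over 18.3% of their length on the other strand. Cxcr6 was not called at any dose, with 0.0622 to 0.788 CPM in vehicle and 0.125 to 1.39 CPM at 30 μg/kg. Cxcr5, a B cell receptor, had 0 to 5 counts in vehicle and 10 to 31 at 30 μg/kg (log2 fold change 3.02 ± 0.68, edgeR adjusted p = 0.000243, and 3.88 on the log2 scale without vehicle replicate 1). It was called from 3 μg/kg, and its ligand Cxcl13 was not called at any dose (log2 fold change -0.07 ± 0.48, edgeR adjusted p = 0.917). Leaving out 1 mouse ended the call of Cxcr5 at 3 μg/kg in 3 of 10 fits. Within each numbering run alone, Cxcr5 was not called at 3 or 10 μg/kg.

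Cxcl12 was the member with the highest level per kb of exon in vehicle and the one called lower from the lowest dose, 1 μg/kg. It was at 368, 399, 411, 415 and 426 CPM in vehicle, 233, 255, 263, 263 and 271 CPM at 1 μg/kg, 170, 176, 186, 187 and 201 CPM at 10 μg/kg and 113, 114, 115, 123 and 151 CPM at 30 μg/kg. None of these groups overlapped, and each was lower than the one before it. The 3 μg/kg group, with 189 CPM in its lowest mouse, overlapped both the 1 and the 10 μg/kg groups. At 0.3 μg/kg Cxcl12 was not called, but every mouse of that group lay below the lowest vehicle mouse, with 255 CPM in the lowest and 294 CPM in the next. Cxcl12 was 1.57-fold lower at 1 μg/kg (log2 fold change -0.65 ± 0.09, edgeR adjusted p = 3.82e-06) and 3.28-fold lower at 30 μg/kg (log2 fold change -1.71 ± 0.09, edgeR adjusted p = 6.28e-18). The difference of 30 against 10 μg/kg passed the test of p but not the fold (log2 fold change -0.58 ± 0.09, edgeR adjusted p = 3.94e-06). Scaled to total counts alone, Cxcl12 lost its call at 1 μg/kg on the fold threshold, with a log2 fold change of -0.56. The signalling receptor of CXCL12, Cxcr4, was at 0.324, 0.348, 0.373, 0.42 and 0.645 CPM in vehicle and at 2.04, 5.73, 7.24, 7.46 and 8.43 CPM at 30 μg/kg, 14.6-fold higher with no overlap (log2 fold change 3.87 ± 0.45, edgeR adjusted p = 1.96e-09). The atypical receptor that clears CXCL12, Ackr3, was at 0.645, 1.12, 1.14, 1.42 and 3.23 CPM in vehicle and at 6.99, 9.17, 9.5, 11.3 and 11.5 CPM at 30 μg/kg, 6.35-fold higher (log2 fold change 2.67 ± 0.34, edgeR adjusted p = 1.55e-08). Ackr3 was called from 3 μg/kg, and its groups did not overlap at 10 or 30 μg/kg.

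Ccl9, a CCR1 ligand like Ccl6, was at 59.0, 64.8, 65.9, 71.6 and 73.4 CPM in vehicle and at 19.2, 20.7, 25.2, 28.0 and 35.6 CPM at 30 μg/kg. Every mouse at 30 μg/kg lay below every vehicle mouse (log2 fold change -1.38 ± 0.16, edgeR adjusted p = 2.28e-09), so that the pair of CCR1 ligands with the most counts moved in opposite directions. Ccl27a, a CCR10 ligand, was at 6.9, 8.67, 9.24, 9.3 and 10.8 CPM in vehicle and at 0.953, 1.22, 2.95, 3.06 and 3.33 CPM at 30 μg/kg, 3.92-fold lower with no overlap (log2 fold change -1.97 ± 0.26, edgeR adjusted p = 2.48e-08). Ccl25, a ligand of CCR9, was at 5.95, 5.97, 8.17, 8.66 and 10.4 CPM in vehicle and at 3.08, 3.2, 3.52, 4.96 and 6.22 CPM at 30 μg/kg. The groups overlapped by 1 mouse (log2 fold change -0.90 ± 0.25, edgeR adjusted p = 0.00245), and scaled to total counts alone the call was lost (log2 fold change -0.39). Under that scaling the median log2 fold change of all genes at 30 μg/kg moved from 0.03 to 0.52.

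Ccl21a, a CCR7 ligand of lymphatic and lymphoid tissue, had 7, 21, 27, 28 and 55 counts in vehicle and 2, 4, 4, 5 and 5 at 30 μg/kg. No mouse at 30 μg/kg reached the lowest vehicle mouse, and it was 10.3-fold lower (log2 fold change -3.37 ± 0.62, edgeR adjusted p = 1.46e-05). Ccl21a and Ccl27a each have near-identical copies, and reads that map to several places were left out of the counts, so both are uncertain. Ackr4, the atypical receptor that clears CCL19, CCL21 and CCL25, had 21, 24, 33, 35 and 48 counts in vehicle and 10, 12, 14, 18 and 20 at 30 μg/kg. It was 3.35-fold lower with no overlap in CPM (log2 fold change -1.74 ± 0.33, edgeR adjusted p = 2.53e-05), although in the first numbering run alone the log2 fold change was -0.89 and not called, and 8.9% of its exon length overlaps Acad11. Ackr2, which clears inflammatory CC ligands, was at 2.18, 2.39, 2.72, 2.74 and 4.27 CPM in vehicle and at 4.12, 5.08, 5.14, 5.26 and 6.82 CPM at 30 μg/kg, 1.85-fold higher with overlap of 1 vehicle mouse (log2 fold change 0.89 ± 0.29, edgeR adjusted p = 0.00987). Ackr1 and Ccr9 were not called at any dose, with log2 fold change 0.54 ± 0.39, edgeR adjusted p = 0.244 for the first at 30 μg/kg and log2 fold change -0.53 ± 0.63, edgeR adjusted p = 0.5 for the second, and 25.7% of the exon length of Ackr1 overlaps Cadm3.

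Levels of different members were compared per length of their exons. The summed level of the 36 ligands was 92.2 ± 4.03 CPM per kb of exon in vehicle and 102 ± 22.7 CPM per kb at 30 μg/kg, and the mice at 30 μg/kg, from 69.4 to 132 CPM per kb, spread over both sides of the vehicle range. Cxcl12 made up 53.6% ± 3.25 of this sum in vehicle and 15.8% ± 6.21 at 30 μg/kg. Ccl9 went from 23.8% ± 1.66 to 8.49% ± 2.17, and Ccl6 from 1.87% ± 0.522 to 28.1% ± 9.24. Cxcl14 went from 0.677% ± 0.192 to 7.55% ± 1.45 and Cxcl16 from 1.78% ± 0.760 to 5.96% ± 0.723. The share of Cxcl9 was 2.33% ± 0.801 in vehicle, 8.81% ± 2.59 at 1 μg/kg and 2.87% ± 1.72 at 30 μg/kg. The 23 receptors summed to 4.56 ± 0.967 CPM per kb in vehicle and to 19.9 ± 4.47 at 30 μg/kg, with no overlap between the groups. Ackr2 made up 20.5% ± 5.62 of the receptor sum in vehicle and 8.66% ± 1.20 at 30 μg/kg, while Ccr1 went from 0.171% ± 0.382 to 17.8% ± 7.23 and Cxcr4 from 5.10% ± 0.769 to 16.6% ± 4.97. These sums were not tested.

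**Figure D4:**
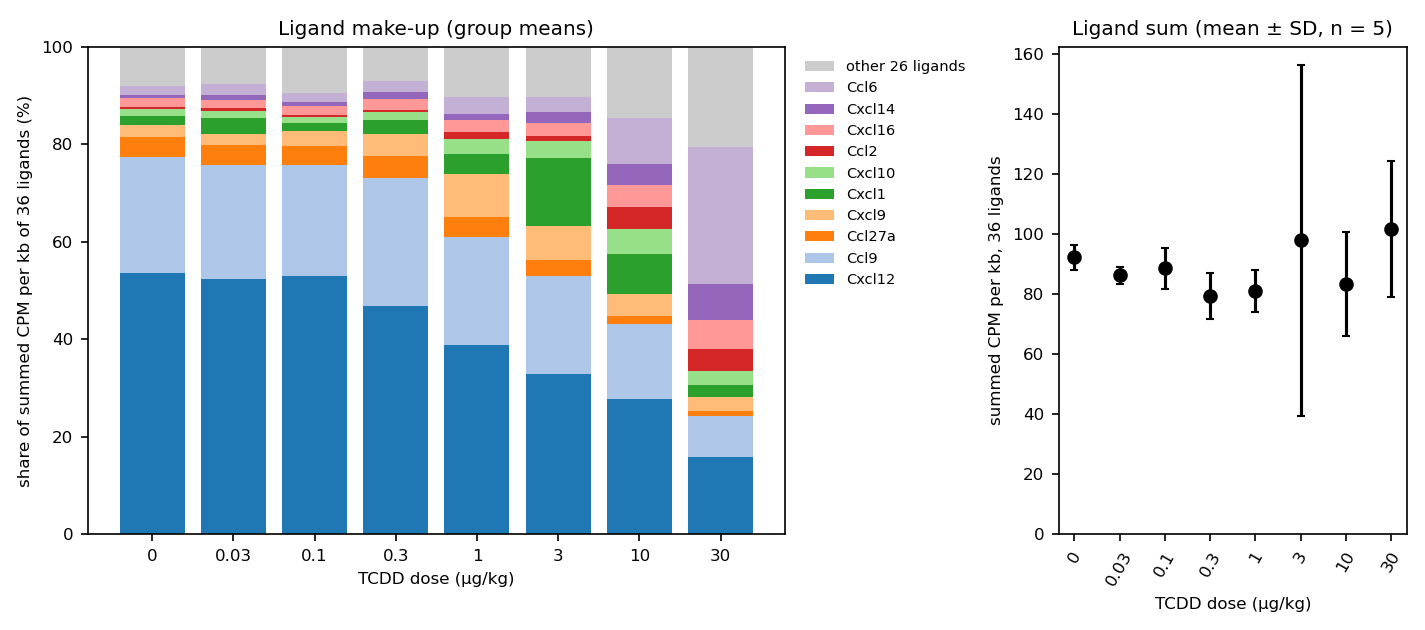
Left, mean share in percent (vertical axis) of each of 10 ligands and of the other 26 in the summed CPM per kb of 36 chemokine ligands at each TCDD dose in μg/kg (horizontal axis). Right, the sum itself in CPM per kb (mean ± SD, n = 5 mice). The share of Cxcl12 falls from 53.6% to 15.8% and that of Ccl6 rises from 1.87% to 28.1% while the sum is 92.2 in vehicle and 102 CPM per kb at 30 μg/kg, and the wide bar at 3 μg/kg holds the mouse with 3677 counts of Cxcl1.

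Between 10 and 30 μg/kg, 15 of the 40 members were called (37.5%, against 21.1% of all genes, 10.6% in each direction). The 12 that rose were Ccl24, Ccl3, Ccl4, Ccl6, Ccr1, Cx3cr1, Cxcl14, Cxcl16, Cxcl2, Cxcl5, Cxcr2 and Cxcr4, and the 3 that fell were Ackr4, Ccl21a and Ccl9. Ccl6 (log2 fold change 1.97 ± 0.32, edgeR adjusted p = 7.75e-06), Cxcl14 (log2 fold change 1.19 ± 0.27, edgeR adjusted p = 0.000655) and Cxcr4 (log2 fold change 1.63 ± 0.38, edgeR adjusted p = 0.000914) kept this call without any 1 mouse, as did Ccl3, Ccr1, Cxcl16, Cxcl2 and Cxcl5. DESeq2 did not call Cxcl5 (log2 fold change 3.07, adjusted p = 0.122) or Cxcr2 (2.05, adjusted p = 0.0673), and run and title order as a covariate ended the call of Ccl24 (0.76, edgeR adjusted p = 0.0672). The calls of Cxcr2 (7 of 10 fits), Ccl4 (5), Ccl24 (5), Ccl9 (4), Ccl21a (2), Cx3cr1 (2) and Ackr4 (1) were lost where 1 mouse was left out, and within the first numbering run no member was called. Most of the members that rose at 30 μg/kg had been called at a lower dose. Counting from the lowest dose called onward, 7 members (Ackr3, Ccl22, Ccl4, Ccr1, Cxcl10, Cxcl14 and Cxcr5) were called from 3 μg/kg, 12 (Ccl2, Ccl3, Ccl5, Ccl6, Ccl7, Ccr2, Ccr7, Cx3cl1, Cx3cr1, Cxcl16, Cxcl2 and Cxcr4) from 10 μg/kg and 5 (Ackr2, Ccl24, Ccr3, Cxcl5 and Cxcr2) at 30 μg/kg alone. Among those that fell, Cxcl12 was called from 1 μg/kg, Ccl21a, Ccl25, Ccl27a and Ccl9 from 10 μg/kg and Ackr4 at 30 μg/kg alone. With 1 mouse left out, the calls at 10 μg/kg were lost in 5 of 10 fits for Ccl21a and in 2 for Ccl25. Scaled to total counts alone, Ccl25 was also not called at 10 μg/kg (log2 fold change -0.51, edgeR adjusted p = 0.159). At 30 μg/kg the groups did not overlap for 21 members that were higher and 5 that were lower, against 19.7% and 17.9% of all genes. At 10 μg/kg these were 17 and 4 members, against 12.9% and 10.1% of all genes.

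Genes that act with chemokines were read from lists. Of 24 tested genes of chemokine receptor signalling, 19 were called higher at 30 μg/kg, 1 lower and 4 were not called, with a median log2 fold change of 2.00 beside 0.03 over all genes. The largest changes were those of Rgs1, which limits G protein signalling in lymphocytes (0.236 ± 0.244 CPM in vehicle and 14.1 ± 9.55 CPM at 30 μg/kg, log2 fold change 5.86 ± 0.69, edgeR adjusted p = 3.43e-09), Pik3r5, a subunit of the phosphoinositide 3-kinase under G proteins (0.654 ± 0.212 CPM in vehicle and 8.14 ± 2.68 CPM at 30 μg/kg, log2 fold change 3.61 ± 0.46, edgeR adjusted p = 1.67e-08), and Rgs16, another G protein regulator, which fell (3.26 ± 2.24 CPM in vehicle and 0.441 ± 0.501 CPM at 30 μg/kg, log2 fold change -2.85 ± 0.99, edgeR adjusted p = 0.0138). Of 10 tested chemokine relatives, 7 were higher, 1 was lower and 2 were not called (median log2 fold change 1.33). Pf4, the platelet factor that is also a CXC chemokine, rose (0.663 ± 0.389 CPM in vehicle and 8.44 ± 5.32 CPM at 30 μg/kg, log2 fold change 3.66 ± 0.55, edgeR adjusted p = 5.58e-07). Rarres2, which encodes the liver-made attractant chemerin, fell (175 ± 30.2 CPM in vehicle and 15.1 ± 12.3 CPM at 30 μg/kg, log2 fold change -3.54 ± 0.28, edgeR adjusted p = 1.64e-13), and Cmtm7, a chemokine-like factor family member, rose (1.94 ± 0.779 CPM in vehicle and 8.33 ± 2.41 CPM at 30 μg/kg, log2 fold change 2.10 ± 0.30, edgeR adjusted p = 1.31e-07). Of 19 tested genes of signals that induce chemokines, 11 were higher, none was lower and 8 were not called (median log2 fold change 0.68). Tlr4, the receptor for bacterial lipopolysaccharide (1.07 ± 0.425 CPM in vehicle and 5.69 ± 2.06 CPM at 30 μg/kg, log2 fold change 2.40 ± 0.34, edgeR adjusted p = 1.43e-07), Il1b, an inflammatory cytokine (0.64 ± 0.354 CPM in vehicle and 3.42 ± 1.25 CPM at 30 μg/kg, log2 fold change 2.37 ± 0.45, edgeR adjusted p = 2.42e-05), and Ltb, a lymphotoxin subunit (1.06 ± 0.387 CPM in vehicle and 4.96 ± 1.72 CPM at 30 μg/kg, log2 fold change 2.21 ± 0.38, edgeR adjusted p = 5.75e-06), had the largest changes of that list. Ifnb1 and Tnfsf11 had no count in vehicle or at 30 μg/kg.

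Cell type markers moved with these genes, and their part in the members' changes was not tested. Alb, the serum albumin of hepatocytes and the check of the tissue as liver, was at 83015 ± 7115 CPM in vehicle and 34527 ± 10858 CPM at 30 μg/kg, log2 fold change -1.27 ± 0.17, edgeR adjusted p = 2.97e-08. It and the other 5 hepatocyte markers were lower at 30 μg/kg. Their summed level was 102630 to 125830 CPM in vehicle and 29739 to 62403 CPM at 30 μg/kg. Of 8 monocyte and macrophage markers 7 were higher, and the sum went from 84.0 to 121 CPM in vehicle to 274 to 763 CPM at 30 μg/kg. All 5 Kupffer cell markers were higher, with sums of 104 to 154 CPM and 349 to 889 CPM. The 4 tested neutrophil markers of 6 were higher, with sums of 1.61 to 3.98 CPM and 15.5 to 50.2 CPM, and Ly6g and Mpo had no count in vehicle. Dendritic cell markers were higher in 4 of 6 (sums of 7.38 to 12.4 and 18.9 to 20.4 CPM), B cell markers in 4 of 4 (3.15 to 4.27 and 5.91 to 12.4 CPM) and T cell markers in 3 of 6 (2.18 to 4.48 and 2.79 to 9.70 CPM). Of the 5 NK cell markers 1 was tested and not called (0.249 to 1.22 and 1.58 to 3.09 CPM). Endothelial markers were higher in 3 of 5 (132 to 175 and 234 to 314 CPM) and stellate and fibroblast markers in 4 of 5 (145 to 211 and 446 to 1020 CPM). Cholangiocyte markers were higher in 4 of 5 and lower in 1 (37.2 to 48.4 and 67.5 to 333 CPM), and of 3 plasma cell markers tested 1 was higher and 1 lower (298 to 362 and 143 to 247 CPM).

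**Figure D5:**
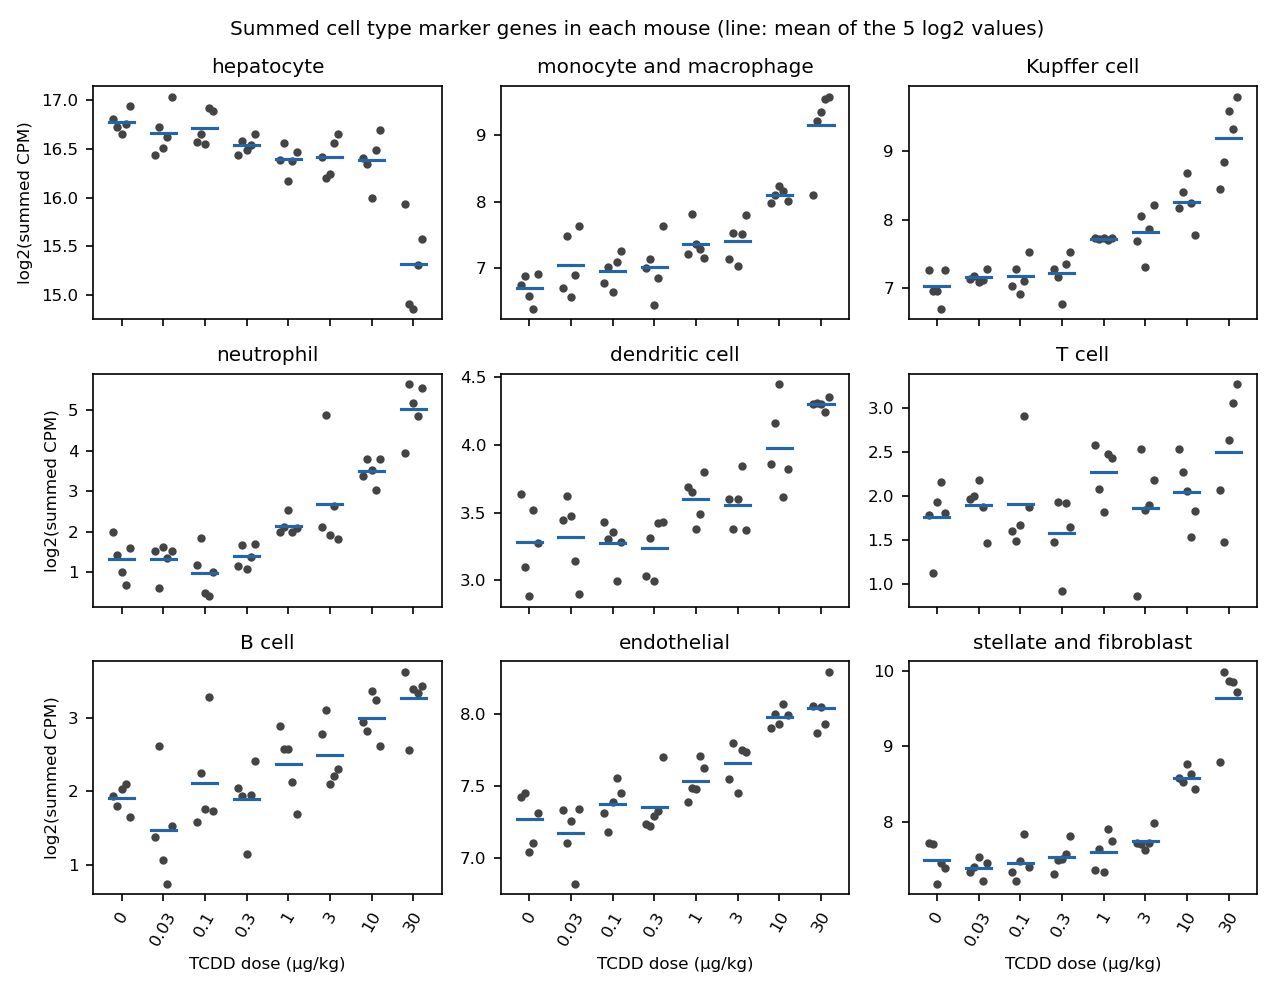
Summed CPM of 9 cell type marker lists on a log2 scale (vertical axes, set per list) in each mouse against TCDD dose in μg/kg (horizontal axis, 0 for vehicle). Each point is 1 mouse and each line the mean of the 5 log2 values of a group. Hepatocyte markers lie lower at 30 μg/kg (29739 to 62403 CPM against 102630 to 125830 CPM in vehicle), monocyte and macrophage, Kupffer cell and neutrophil markers lie higher, and 1 mouse at 3 μg/kg stands above its group in neutrophil markers.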

How the data were processed

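RNA from frozen liver was sequenced from 40 mice in 8 groups of 5, with groups taken from the sample labels. The authors deposited raw counts per gene from STAR, and the unstranded count column was used. The processing notes name FastQC 0.11.7, Trimmomatic 0.39, STAR 2.7.3a and the builds GRCm39 and mm10, with no role given, so the annotation behind the counts is not given in the sources used here and no coordinates of counted genes are printed. A deposited normalized table was not used. Symbols and exon lengths came from GENCODE M21. Reads that fell in genes made up 71.3% to 80.8% of a library, and unmapped, multimapping, no-feature and ambiguous reads (2.47% to 11.3%, 5.24% to 7.43%, 3.34% to 7.36% and 4.84% to 5.90%) stayed out of library sizes. Reads carry no strand, so those over exons of several genes are ambiguous even where the genes lie on opposite strands. Overlapping genes can lose counts in this way.

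In R 4.3.3, edgeR 4.0.16 kept 15373 genes (filterByExpr, minimum count 10, minimum total count 15), scaled libraries by TMM and fitted 1 quasi-likelihood model over all 40 libraries, with p-values adjusted by Benjamini-Hochberg over all genes tested. The script was tested on simulated data. The study's methods used a fold of 1.5 with an empirical Bayes posterior, for which edgeR stood in. Floors of 3 counts cover counting error only, and standard errors and p-values take in the spread between mice. No 2 libraries of a group agreed within sampling noise. Alternatives were DESeq2 1.42.0, other scalings, filters, covariates, numbering runs and leaving out single mice.

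The members and lists were chosen with earlier results of these data known. Results of 1 member are not reported here, although it stays in the counts. Named genes are otherwise the 4 given with the rule (Ccl2, Cxcl10, Ccr2 and Cx3cr1) and every member called at any dose or at 30 against 10 μg/kg. Members that were not called are named in groups or beside their ligand or receptor. Values in single mice are given for these 4, for called members with at least 50 mean counts in their highest group and for a few others below 50 (among them Cxcl2, Ccl21a and Ackr4) that a sentence turns on, and other lists are named by their 3 largest called changes.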

Additional observations from a re-analysis of the deposited data

Results flagged for a closer look

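Dixon's test was applied to 75 groups of 5 mice. These were 29 members in vehicle and at 30 μg/kg, with the groups at 1, 3 or 10 μg/kg whose mice are described singly above. In 15 groups, the gap between a mouse and its neighbour took up more of the range than the 95% critical value. For normal values chance gives this in about 1 in 20 groups. That rate is no yardstick here, because some groups at 3 and 10 μg/kg are described above for such a mouse. Groups with 0 counts in most mice can also pass the critical value through a few counts in 1 mouse. Cxcl1 at 3 μg/kg was at 219 CPM in its highest mouse and 5.42 in the next, and at 10 μg/kg at 49.0 and 10.3 CPM. At 3 μg/kg the highest mouse also stood apart for Ccl6 (12.5 CPM, next 4.95) and Cxcr2 (2.63 CPM, next 0.175), and at 10 μg/kg for Ccl2 (10.0 CPM, next 4.59) and Cxcl2 (0.600 CPM, next 0.333). Ccl24 at 30 μg/kg was at 6.11 CPM in its highest mouse and 2.33 in the next. Cxcl12 at 30 μg/kg was at 151 CPM in its highest mouse and 123 in the next. The lowest mouse stood apart for Ccl22 at 30 μg/kg (1.53 CPM, next 2.25). In vehicle, the highest mouse stood apart for Ackr2 (4.27 CPM, next 2.74) and Cx3cr1 (1.24 CPM, next 0.398). At the level of a few counts the same held in vehicle for Ccl22 (0.215 CPM, next 0.0622), for Ccl4 (0.215 CPM, next 0.0622), for Ccr1 (0.0995 CPM, next 0) and for Cxcl2 (0.0716 CPM, next 0).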

How the results depend on the processing

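Counts of members called stayed within 1.5 times under DESeq2, RLE size factors, total counts, no filter on low counts and both covariate fits. A filter at a mean of 50 counts, which tests fewer members, gave 7 calls at 3 μg/kg, 10 at 10 μg/kg, 11 at 30 μg/kg, 4 at 30 against 10 μg/kg and 13 dose trends, where the fit reported gave 11, 26, 31, 15 and 37. These lower counts are not a loss of calls among the members it tested. Of 35 calls against vehicle or at 30 against 10 μg/kg in those members, 34 stayed the same. The other was weaker (Ccl9 at 30 against 10 μg/kg, log2 fold change -0.56). Numbering run 1 alone, with fewer mice, gave 1 call at 1 μg/kg, 2 at 3 μg/kg and 0 at 30 against 10 μg/kg, and run 2 alone 2, 3 and, at 10 μg/kg, 15. Only the groups compared gave 7 calls at 3 μg/kg, and no fold threshold gave 1, of a member that was lower, at 0.3 μg/kg. The log2 fold change of Ccl24 in run 1 alone was -0.26 at 30 μg/kg and -0.25 at 30 against 10 μg/kg, and the cause was not tested. Leaving out 1 mouse at a time gave 0 to 0 calls at 0.03, 0.1 and 0.3 μg/kg, 1 to 4 at 1 μg/kg, 6 to 11 at 3 μg/kg, 24 to 29 at 10 μg/kg, 29 to 33 at 30 μg/kg, 11 to 17 at 30 against 10 μg/kg and 34 to 37 dose trends. The lowest counts came without TCDD 1 replicate 4 at 1 μg/kg (1, and 2 without vehicle replicate 3, 4 or 5), and without TCDD 3 replicate 2 or replicate 4 at 3 μg/kg (6 each), with 7 without vehicle replicate 3. At 30 μg/kg, run 1 alone lost calls that included those of Ackr4, Ccl5, Ccr3 and Cxcl10, and run 2 alone those of Ackr2, Ccl24, Ccl5, Ccl7 and Ccr7. No paired analysis was possible because no label says that mice of different groups share a litter, cage or day. Fits with the run, or the run and title order together, as a factor gave 30 calls at 30 μg/kg each. Depth limits the members near 0 counts in vehicle, whose folds are lower bounds or move with single mice.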
